A study of Homo sapiens with 8 samples.

Results

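The Notch genes described here are 10 genes taken by name from a table of 25369 genes: the receptors NOTCH1, NOTCH2 and NOTCH3, the ligands JAG1, JAG2 and DLL1, and the HES and HEY transcription factors HES1, HES2, HES5 and HEY1. All 10 were found in the table. The cells were EPC2-hTERT, an established line of human esophageal keratinocytes immortalised with telomerase, and expression was read by RNA sequencing. A stable line carrying a short hairpin RNA against HIF1A (HIF1A-KD) was compared with a stable line carrying a control hairpin (shCtrl), with 4 libraries of each, numbered 1 to 4. Both lines were made by lentiviral transduction, with no number of hairpins or clones given in the sources used here. Both groups were air-liquid-interface cultures, in which squamous epithelium stratifies: 2 days to confluence on a porous membrane (0.4 µm), 5 days at 1.8 mM calcium and then 4 days with the upper surface in air. The labels also mention a DMSO vehicle and a hydroxylase inhibitor and tie neither to a library. They do not say whether the 4 libraries of a group came from separate cultures, so p-values measure only the spread between these libraries, which may be technical.

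Notch receptors are single-pass membrane proteins that are activated by a ligand on a neighbouring cell. Ligand binding lets ADAM proteases and then gamma-secretase cut the receptor, and the freed intracellular part enters the nucleus, where it joins the DNA-binding protein RBPJ and Mastermind co-activators to switch on genes such as HES1, HES5 and HEY1. In stratified squamous epithelium NOTCH1 is known for promoting the exit of basal cells from the cell cycle and their differentiation in the suprabasal layers, with JAG1 and JAG2 as the main ligands of keratinocytes.

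Libraries held between 38068729 reads (HIF1A-KD 4) and 65326907 reads (HIF1A-KD 2), as recovered from the deposited values. HIF1A itself averaged 36.6 ± 16.3 RPKM in HIF1A-KD and 89.7 ± 29.2 RPKM in shCtrl (SD, n = 4 each), and was lower in HIF1A-KD for all 4 numbers (log2 change −1.34, limma adjusted p = 0.319 without a block and 0.0253 with the library number as a block). Its ratio of HIF1A-KD to shCtrl by number was 0.290, 0.369, 0.610 and 0.368. The groups overlapped, with HIF1A-KD 3 (54.8 RPKM) above shCtrl 2 (51.4 RPKM), and exact permutation of the libraries gave a two-sided p = 0.0571. RPKM are reads scaled for gene length and sequencing depth, so levels of different genes can be compared. All 14 squamous markers held at least 1 RPKM in every library. Of 5 markers each of 4 other cell types, 3 leukocyte (PTPRC, CD3E and TYROBP), 3 endothelial, 3 melanocyte and 4 fibroblast markers did not pass 0.1 RPKM in any library. The summed level of the leukocyte list, nearly all CD68, ran from 19.1 to 86.3 RPKM in HIF1A-KD and from 23.5 to 115 RPKM in shCtrl. That of the endothelial list, nearly all VWF, ran from 1.47 to 12.6 RPKM in HIF1A-KD and from 0.659 to 15.5 RPKM in shCtrl, highest in number 1 of both groups. That of the melanocyte list ran from 0.719 to 2.08 RPKM in HIF1A-KD and from 0.517 to 1.12 RPKM in shCtrl. It was mostly PMEL except in HIF1A-KD 3, where MITF (0.459 RPKM) was above PMEL (0.260 RPKM). The fibroblast list, nearly all COL1A1, summed to 14.1 to 19.2 RPKM in HIF1A-KD and 21.2 to 27.7 RPKM in shCtrl without overlap (COL1A1 limma adjusted p = 0.319 without a block and 0.092 with it). The part of these markers in the Notch values was not tested. The summed level of 7 suprabasal markers ran from 4104 to 4967 RPKM in HIF1A-KD and from 1040 to 2515 RPKM in shCtrl, and that of 7 basal markers from 9827 to 12108 RPKM in HIF1A-KD and from 8367 to 12335 RPKM in shCtrl. Of the suprabasal markers KRT10 was the 1 that rose with the library number as a block (limma, adjusted p = 0.0432), and 0 of 7 passed without it; its part in the Notch values was likewise not tested. In bulk samples such as these, fewer cells of a type and less RNA per cell cannot be told apart. Libraries numbered 1 and 2 did not overlap those numbered 3 and 4 in 27.9% of the 11899 genes tested, a split the labels do not explain.

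None of the 10 Notch genes passed the test between HIF1A-KD and shCtrl, without a block or with the libraries paired by number, and the levels of all 10 overlapped between the groups. The call depends on the pairing: with HIF1A-KD 3 and 4 exchanged, NOTCH1, JAG1 and HES2 were called lower and DLL1 higher in HIF1A-KD, 4 of 10 against 11.2% of all tested genes. That pairing was chosen from the correlations between these libraries, which were higher for the exchanged pairs, and not from the labels, so its calls are no independent support. All 10 had at least 0.5 RPKM in at least 4 libraries, the limit for testing. With limma on log2(RPKM + 0.1) and Benjamini-Hochberg adjustment over all genes, 0 of 10 were called at an adjusted p of 0.05, where 0.042% of all tested genes were called. HES2 was the 1 member with an unadjusted p under 0.05, against 7.8% of all genes. With the library number as a block 0 of 10 were called, against 1.83% of all genes, and 2 (DLL1 and HES2) had an unadjusted p under 0.05, against 19.6% of all genes. Limma-voom on reads recovered from the RPKM values called 0 of 10, against 0.0424% of all genes, and a fit with a term for numbers 1 and 2 against 3 and 4 called 0 of 10, against 0.857%. Of the 10 estimates 4 were above 0 and 6 below, with a median log2 change of −0.026, against 58.7% above 0 and a median of 0.064 over all genes. A total of 5.4% of tested genes had groups that did not overlap, and 0 of the 10 members did.

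**Figure D1:**
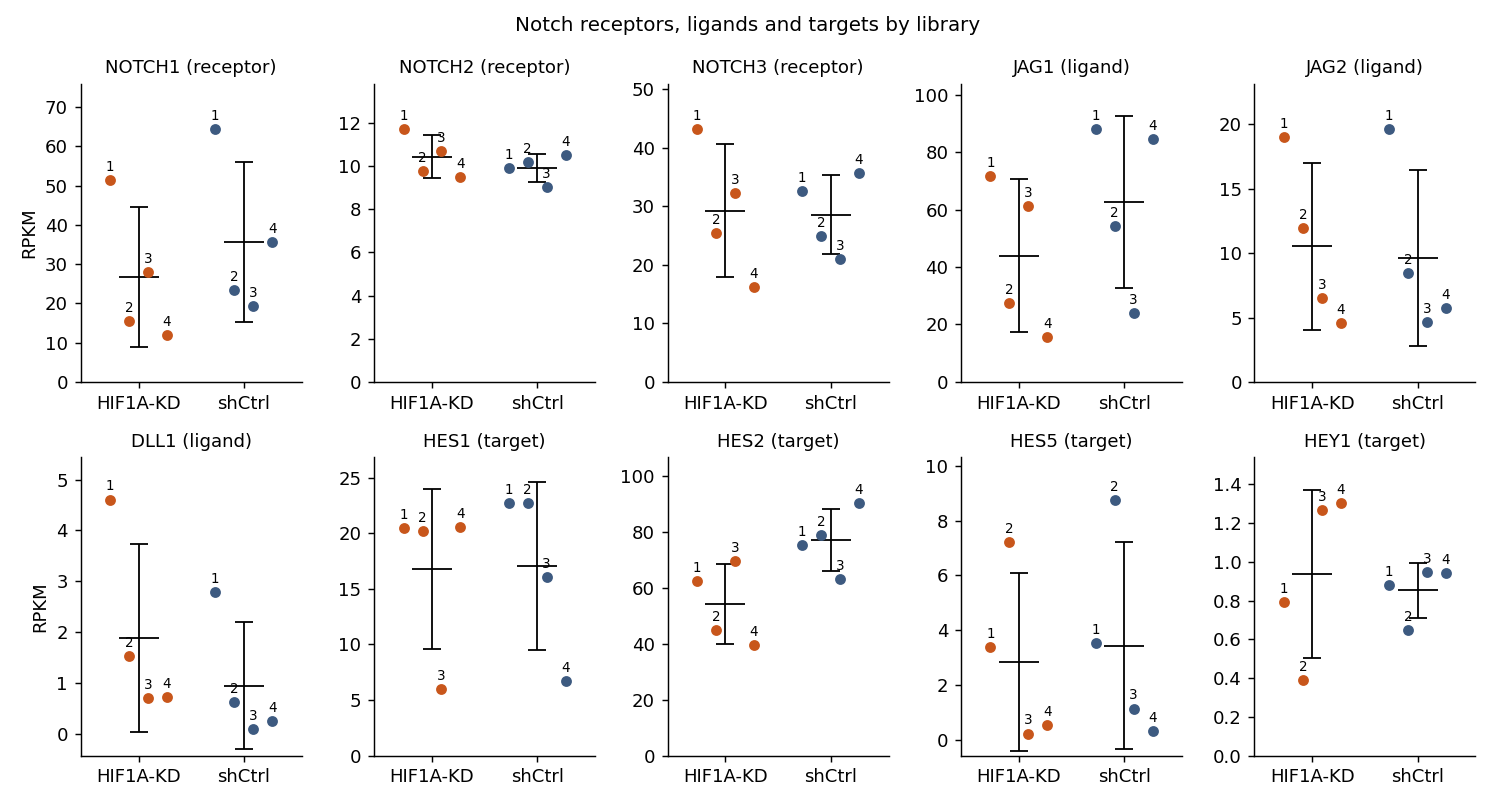
RPKM of each Notch gene (y axis, linear) in the 4 HIF1A-KD libraries (orange) and the 4 shCtrl libraries (blue), with the library number above each point and the mean ± SD as black bars. The groups overlapped for every gene, and DLL1 was higher in HIF1A-KD for each of the 4 numbers.

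The receptors were led by NOTCH1 and NOTCH3. NOTCH1 (chromosome 9, 139388896 to 139440238, minus strand, hg19) held 51.4, 15.5, 27.9 and 12.0 RPKM in HIF1A-KD 1 to 4, against 64.4, 23.3, 19.3 and 35.7 RPKM in shCtrl 1 to 4. Library 1 was the highest of both groups, HIF1A-KD 2 and 4 lay below every shCtrl library, and HIF1A-KD 3 lay above shCtrl 2 and 3. The means were 26.7 ± 17.8 RPKM in HIF1A-KD and 35.7 ± 20.4 RPKM in shCtrl (SD, n = 4 each), with a log2 change of −0.49 (SE 0.50, limma adjusted p = 0.940). The 95% interval of the difference ran from −1.62 to 0.65 on the log2 scale and included 0. Paired by number, NOTCH1 had an SE of 0.32 and a 95% interval of −1.28 to 0.30, which also included 0. By number, the ratio of HIF1A-KD to shCtrl was 0.798, 0.664, 1.45 and 0.336, lower in 3 of 4.

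NOTCH3 (chromosome 19, 15270444 to 15311792, minus strand) was at a similar level to NOTCH1 and had an estimate close to 0. It held 43.1, 25.4, 32.2 and 16.2 RPKM in HIF1A-KD 1 to 4, against 32.7, 24.9, 21.0 and 35.7 RPKM in shCtrl 1 to 4, and HIF1A-KD held both the highest and the lowest library. The log2 change was −0.02 (SE 0.31, adjusted p = 0.999), and its 95% interval ran from −0.71 to 0.67. NOTCH2 (chromosome 1, 120454176 to 120612317, minus strand) varied least of the 10, with 11.7, 9.78, 10.7 and 9.50 RPKM in HIF1A-KD 1 to 4 and 9.88, 10.2, 9.01 and 10.5 RPKM in shCtrl 1 to 4. Its highest library was 1.30 times its lowest, against 5.36 times for NOTCH1 and 2.66 times for NOTCH3. The log2 change of NOTCH2 was 0.07 (SE 0.15, adjusted p = 0.985), with a 95% interval of −0.27 to 0.41. NOTCH2 shares near-identical sequence with its partial copy NOTCH2NL, which held 5.16 ± 0.54 RPKM in HIF1A-KD and 5.36 ± 0.91 RPKM in shCtrl (SD, n = 4 each), so its level is uncertain where reads were split between the copies.

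As a share of the summed RPKM of these 3 receptors, NOTCH1 made up 37.5 ± 8.20% in HIF1A-KD and 45.7 ± 9.87% in shCtrl (SD, n = 4 each; two-sided exact permutation p = 0.257). NOTCH3 made up 44.8 ± 4.07% in HIF1A-KD and 39.8 ± 6.21% in shCtrl (exact permutation p = 0.286). NOTCH2 made up 17.7 ± 6.05% in HIF1A-KD and 14.4 ± 4.21% in shCtrl (exact permutation p = 0.429). The order of NOTCH1 and NOTCH3 was not stable between libraries: NOTCH3 was above NOTCH1 in 3 of 4 HIF1A-KD libraries, and in 2 of 4 shCtrl libraries, with both at 35.7 RPKM in shCtrl 4. With 4 against 4 libraries the smallest two-sided permutation p is 0.0286.

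JAG1 was the most abundant ligand and DLL1 the least. JAG1 (chromosome 20, 10618332 to 10654694, minus strand) held 71.6, 27.5, 61.2 and 15.5 RPKM in HIF1A-KD 1 to 4, against 88.0, 54.3, 24.1 and 84.6 RPKM in shCtrl 1 to 4. The low libraries were HIF1A-KD 2 and 4 and shCtrl 3, and HIF1A-KD 1 and 3 lay above shCtrl 2. The means were 44.0 ± 26.7 RPKM in HIF1A-KD and 62.8 ± 29.9 RPKM in shCtrl (SD, n = 4 each). The log2 change was −0.59 (SE 0.56, adjusted p = 0.921), with a 95% interval of −1.85 to 0.66. By number the ratio ran from 0.183 for number 4 to 2.54 for number 3, and was 0.814 and 0.507 for numbers 1 and 2.

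JAG2 (chromosome 14, 105607318 to 105635161, minus strand), the second Jagged ligand, followed the library number more than the hairpin. It held 19.0, 12.0, 6.52 and 4.54 RPKM in HIF1A-KD 1 to 4, against 19.6, 8.44, 4.67 and 5.73 RPKM in shCtrl 1 to 4. Numbers 1 and 2 were above numbers 3 and 4 in both groups, with the lowest of numbers 1 and 2 at 8.44 RPKM and the highest of numbers 3 and 4 at 6.52 RPKM. The log2 change between the groups was 0.15 (SE 0.54, adjusted p = 0.995, 95% interval −1.06 to 1.36). These limits include the spread between library numbers. Pairing by number narrowed the SE of JAG2 to 0.17 and its 95% interval to −0.27 to 0.57, which still included 0.

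DLL1, a Delta-type ligand (chromosome 6, 170591294 to 170599697, minus strand), was low and was the 1 member that was higher in HIF1A-KD for all 4 numbers, a pattern of one direction that 29.3% of all tested genes showed. It held 4.61, 1.52, 0.704 and 0.722 RPKM in HIF1A-KD 1 to 4, against 2.78, 0.629, 0.098 and 0.247 RPKM in shCtrl 1 to 4. The recovered reads behind these levels were 696, 329, 110 and 91 in HIF1A-KD and 446, 90, 17 and 39 in shCtrl. The groups overlapped because shCtrl 1 lay above 3 of the HIF1A-KD libraries. By number the ratio of HIF1A-KD to shCtrl was 1.66, 2.42, 7.18 and 2.93. The log2 change was 1.28 by limma, with an SE of 0.87 and an adjusted p of 0.830. Other measures lay on both sides of it: limma-voom gave a log2 change of 1.60, and the authors' deposited table gave 0.91. The ratio of the HIF1A-KD mean to the shCtrl mean was 2.01. Blocking on the library number gave an SE of 0.30 and an adjusted p of 0.0904. Without the pairing, exact permutation of the 8 libraries gave a two-sided p = 0.229. As a share of the summed RPKM of the 3 ligands, DLL1 made up 4.84, 3.71, 1.03 and 3.47% in HIF1A-KD 1 to 4 and 2.52, 0.993, 0.339 and 0.272% in shCtrl 1 to 4 (exact permutation p = 0.0571), and JAG1 made up 76.6 ± 9.33% in HIF1A-KD and 85.6 ± 5.78% in shCtrl (SD, n = 4 each; exact permutation p = 0.171).

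The targets are repressors of the basic helix-loop-helix class. HES1 and HES5 are textbook Notch targets whose promoters carry binding sites for RBPJ. The promoters of HES1, HES5 and their relative HES4, which is also expressed here, are printed beside that of HES2 because only the first 3 hold the core letters of such a site. They are the 250 bases before the RefSeq start, 5′ to 3′ on the gene's strand, from build GRCh38.p14 (chr3:194135898-194136147, plus strand, for HES1; chr1:2530264-2530513, minus strand, for HES5; chr1:1000098-1000347, minus strand, for HES4; chr1:6419920-6420169, minus strand, for HES2). Capitals mark TGGGAA or its reverse complement TTCCCA.
HES1: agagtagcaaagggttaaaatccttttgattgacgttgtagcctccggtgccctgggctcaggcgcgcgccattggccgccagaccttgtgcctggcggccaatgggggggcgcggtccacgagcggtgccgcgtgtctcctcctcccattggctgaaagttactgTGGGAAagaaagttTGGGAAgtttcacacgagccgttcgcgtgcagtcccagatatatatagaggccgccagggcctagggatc
HES5: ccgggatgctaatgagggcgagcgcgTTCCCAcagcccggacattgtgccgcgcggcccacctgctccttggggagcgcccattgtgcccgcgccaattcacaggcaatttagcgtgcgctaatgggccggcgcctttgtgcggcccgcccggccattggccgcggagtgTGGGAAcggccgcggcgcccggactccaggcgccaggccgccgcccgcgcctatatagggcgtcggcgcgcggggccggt
HES4: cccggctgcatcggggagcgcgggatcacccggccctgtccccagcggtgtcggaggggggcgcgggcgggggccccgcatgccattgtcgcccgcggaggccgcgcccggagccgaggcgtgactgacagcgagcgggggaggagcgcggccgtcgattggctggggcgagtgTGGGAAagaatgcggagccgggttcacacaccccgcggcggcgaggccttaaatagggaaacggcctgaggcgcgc
HES2: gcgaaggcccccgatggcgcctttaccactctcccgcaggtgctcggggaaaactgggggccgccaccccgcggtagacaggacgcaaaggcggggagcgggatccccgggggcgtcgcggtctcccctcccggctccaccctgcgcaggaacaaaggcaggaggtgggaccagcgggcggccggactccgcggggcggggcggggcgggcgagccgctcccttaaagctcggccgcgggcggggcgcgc
TGGGAA began 84 and 70 bases before the start in HES1, 80 bases before it in HES5, with a reverse copy at 224, and 76 bases before it in HES4. Over windows of 300 bases, the 250 before and 50 after the start, these letters on either strand were in 24.0% of all 35116 promoters of the table and in 2 of the 8 members it holds (HES1 and HES5). Such a match is a description of the letters and not a measured binding site.

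HES1 (chromosome 3, 193853931 to 193856401, plus strand, hg19) held 20.4, 20.2, 6.03 and 20.5 RPKM in HIF1A-KD 1 to 4, against 22.7, 22.7, 16.0 and 6.73 RPKM in shCtrl 1 to 4. Each group had 1 library with a level far below the others, HIF1A-KD 3 and shCtrl 4, and the remaining 6 lay between 16.0 and 22.7 RPKM. The means were 16.8 ± 7.18 RPKM in HIF1A-KD and 17.1 ± 7.57 RPKM in shCtrl (SD, n = 4 each), with a log2 change of −0.03 (SE 0.50, adjusted p = 0.999; 95% interval −1.16 to 1.10). Without HIF1A-KD 3 the log2 change was 0.40, and without shCtrl 4 it was −0.42.

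HES5 (chromosome 1, 2460184 to 2461684, minus strand) was low and had the second widest spread of the 10 between libraries. It held 3.37, 7.23, 0.227 and 0.523 RPKM in HIF1A-KD 1 to 4, against 3.54, 8.74, 1.14 and 0.321 RPKM in shCtrl 1 to 4. The recovered reads were 201, 617, 14 and 26 in HIF1A-KD and 224, 493, 78 and 20 in shCtrl. Number 2 was the highest of each group and numbers 3 and 4 the lowest, without overlap between numbers 1 and 2 and numbers 3 and 4. The highest library was 38.5 times the lowest. Between the groups the log2 change was −0.42 (SE 1.16, adjusted p = 0.988, 95% interval −3.04 to 2.19). When libraries were paired by number, HES5 had an SE of 0.40 and a 95% interval of −1.40 to 0.55.

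HES2 (chromosome 1, 6475294 to 6479979, minus strand), a less studied member of the family, was the most abundant of the 10 genes on average. It held 62.4, 44.9, 69.6 and 39.4 RPKM in HIF1A-KD 1 to 4, against 75.4, 79.0, 63.3 and 90.4 RPKM in shCtrl 1 to 4. HIF1A-KD 1, 2 and 4 lay below every shCtrl library, and HIF1A-KD 3 lay above shCtrl 3. The means were 54.1 ± 14.3 RPKM in HIF1A-KD and 77.0 ± 11.2 RPKM in shCtrl (SD, n = 4 each), and the ratio by number was 0.828, 0.568, 1.10 and 0.436. The log2 change was −0.54 (SE 0.22), with an unadjusted p of 0.0362 and an adjusted p of 0.583 by limma. The adjusted p was 0.246 with the library number as a block, and the exact permutation test gave p = 0.0571. The 95% interval without adjustment, −1.03 to −0.04, did not include 0. Within numbers 1 and 2 the log2 change of HES2 was −0.54, and within numbers 3 and 4 it was −0.53.

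HEY1 (chromosome 8, 80676245 to 80680098, minus strand), a target of the HEY group, was the lowest of the 10 on average. It held 0.791, 0.392, 1.27 and 1.30 RPKM in HIF1A-KD 1 to 4, against 0.881, 0.646, 0.948 and 0.942 RPKM in shCtrl 1 to 4, from 66 to 154 recovered reads per library. Numbers 1 and 2 were below numbers 3 and 4 in both groups, opposite to HES5 and JAG2, with 0.881 RPKM as the highest of numbers 1 and 2 and 0.942 RPKM as the lowest of numbers 3 and 4. The log2 change between the groups was 0.02 (SE 0.39, adjusted p = 0.999, 95% interval −0.86 to 0.89). Paired by number, HEY1 had an SE of 0.29 and a 95% interval of −0.67 to 0.71. Within numbers 1 and 2 the log2 change was −0.37 and within numbers 3 and 4 it was 0.41.

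**Figure D2:**
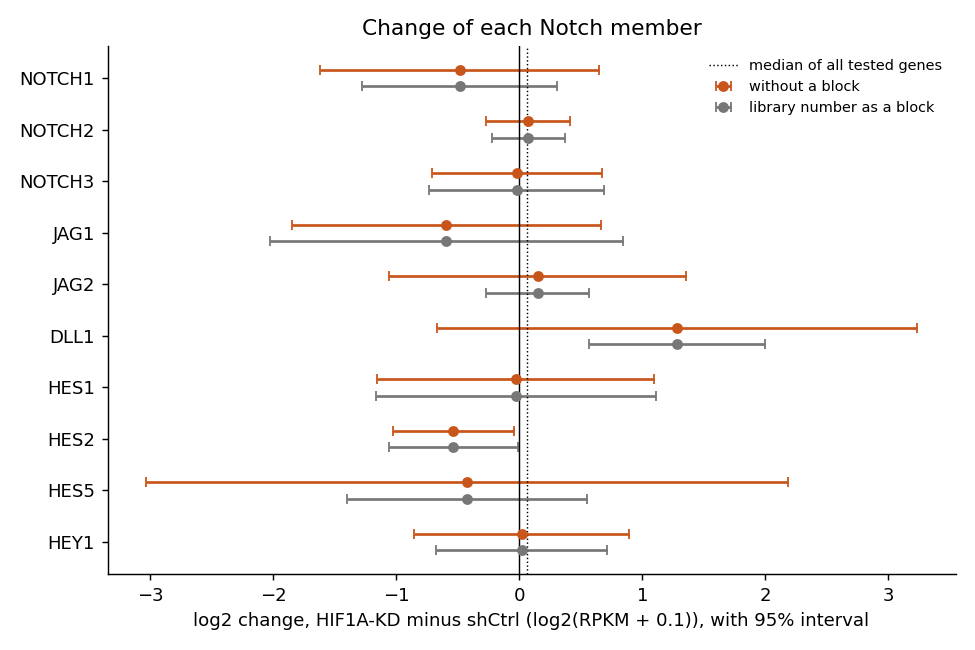
Log2 change of each Notch gene, HIF1A-KD minus shCtrl, on the log2(RPKM + 0.1) scale (x axis), with unadjusted 95% intervals from limma without a block (orange) and with the library number as a block (grey); the dotted line is the median of all tested genes, 0.064. The SE of DLL1 was 0.30 with the block and 0.87 without it. The interval of HES2 left out 0 in both fits and that of DLL1 with the block, and those of the other 8 members included 0 in both.

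The authors' deposited table of their own comparison, made from the same libraries and so no independent support, lists all 10 members and calls 2 of them at an adjusted p of 0.05, against 9.02% of its 13627 genes. It calls 1 member higher in HIF1A-KD, against 3.94% of its genes, and 1 lower, against 5.08%. In the authors' deposited table DLL1 had 287 mean normalised reads in HIF1A-KD and 153 in shCtrl (adjusted p = 0.0161), and HES2 had 10616 in HIF1A-KD and 15961 in shCtrl (adjusted p = 0.0373). NOTCH1 had 11354 in HIF1A-KD and 16190 in shCtrl in the authors' deposited table, with an adjusted p of 0.237. The directions of DLL1 and HES2 there were those given above. Among the fits run here, both were called with the exchanged pairing and neither in the others.

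In order of mean RPKM, HIF1A-KD libraries ran HES2, JAG1, NOTCH3, NOTCH1, HES1, JAG2, NOTCH2, HES5, DLL1 and HEY1, and shCtrl libraries ran HES2, JAG1, NOTCH1, NOTCH3, HES1, NOTCH2, JAG2, HES5, DLL1 and HEY1. In HIF1A-KD the ranges of neighbours in this order overlapped at every step except between NOTCH2 and HES5, and in shCtrl they overlapped at every step. JAG2, HES5 and HEY1 had no overlap between numbers 1 and 2 and numbers 3 and 4, 3 of 10 against the 27.9% of all tested genes given above.

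The level of JAG1 moved with those of NOTCH1 and NOTCH3 from library to library. Over the 8 libraries the Pearson r of log2(RPKM + 0.1) was 0.905 between JAG1 and NOTCH1 (Spearman rho 0.952) and 0.900 between JAG1 and NOTCH3 (rho 0.881). By exact permutation, adjusted over the 45 pairs of members, Pearson's p was 0.0435 for each, and Spearman's was 0.0513 for JAG1 with NOTCH1 and 0.161 for JAG1 with NOTCH3. The unadjusted p for Pearson's r were 0.00198 for NOTCH1 and 0.00188 for NOTCH3. Without the 2 libraries farthest from the median of the receptor, r was 0.847 with NOTCH1 and 0.888 with NOTCH3. After subtracting each group's mean, r was 0.895 with NOTCH1 and 0.948 with NOTCH3, so the relation was also present within groups. The libraries share their number across groups, so 8 is an upper limit on the independent points. The permutations treated all 8 as independent, so these p-values may be too small and serve as a description only. JAG2 with DLL1 was the 1 other pair with an adjusted Pearson p under 0.05, but JAG2, HES5 and HEY1 separate the libraries by number and each set has 4 libraries, so no r is given for them.

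**Figure D3:**
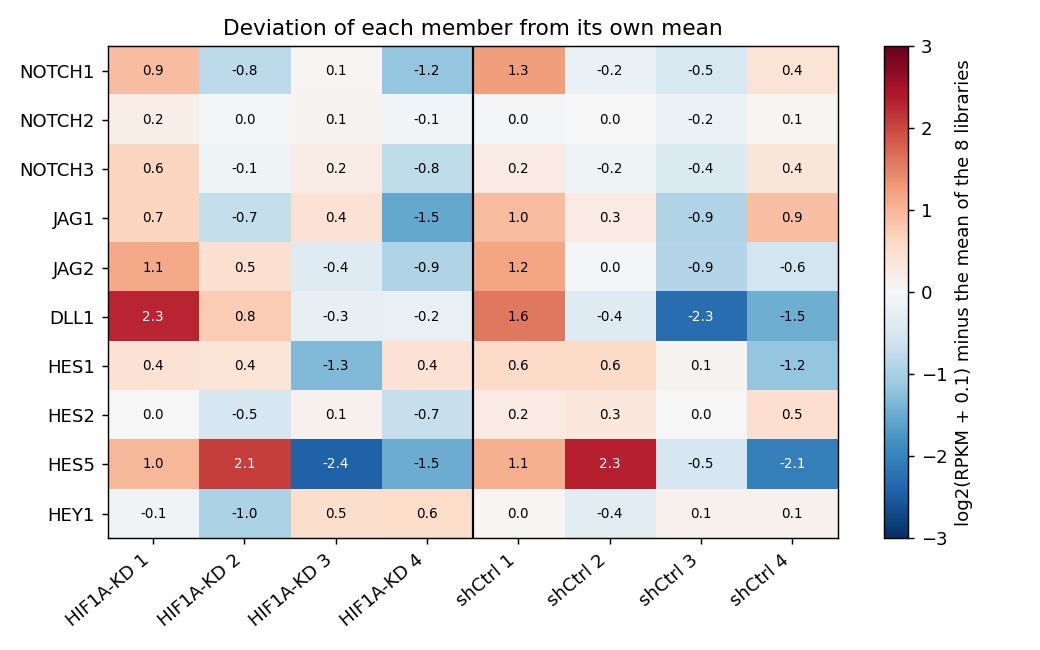
Log2(RPKM + 0.1) of each Notch gene minus its own mean over the 8 libraries (colour and printed value), with HIF1A-KD 1 to 4 left of shCtrl 1 to 4. NOTCH1, NOTCH3 and JAG1 were high together in HIF1A-KD 1, shCtrl 1 and shCtrl 4 and low together in HIF1A-KD 4 and shCtrl 3. HES5 was high in numbers 1 and 2 of both groups, highest in number 2.

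The promoters of NOTCH1 and JAG1 are shown as a description of short core letters, those that the product of HIF1A binds in hypoxia response elements. They are again the 250 bases before the RefSeq start in build GRCh38.p14 (chr9:136546049-136546298, minus strand, for NOTCH1; chr20:10674000-10674249, minus strand, for JAG1), and capitals mark ACGTG and likewise GCGTG, read on either strand.
NOTCH1: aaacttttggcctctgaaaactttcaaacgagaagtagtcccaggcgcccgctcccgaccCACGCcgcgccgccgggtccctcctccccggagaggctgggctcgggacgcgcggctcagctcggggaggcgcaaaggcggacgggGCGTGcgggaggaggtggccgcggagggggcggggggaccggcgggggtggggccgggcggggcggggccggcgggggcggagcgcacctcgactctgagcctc
JAG1: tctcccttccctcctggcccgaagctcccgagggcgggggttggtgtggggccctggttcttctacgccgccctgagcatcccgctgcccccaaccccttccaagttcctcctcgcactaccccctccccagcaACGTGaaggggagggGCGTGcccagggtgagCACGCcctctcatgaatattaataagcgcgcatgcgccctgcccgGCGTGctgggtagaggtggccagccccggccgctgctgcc
In these windows JAG1 held ACGTG 116 bases before the start and GCGTG or its reverse at 101, 85 and 40 bases before it, and NOTCH1 held GCGTG at 104 and its reverse at 190. NOTCH3, whose level also moved with that of JAG1 and whose promoter is not printed, held GCGTG at 222. Over the full 300 bases, ACGTG on either strand was in 21.4% of all promoters and in 1 of 8 members (JAG1), and GCGTG was in 36.5% of all promoters and in 6 of 8 members (NOTCH1, NOTCH3, JAG1, JAG2, HES1 and HES5). CACGTG, which contains ACGTG, was in 7.26% of all promoters and in 0 of the 8. These letters are short and common, and no binding was measured here. Their part in the levels of these genes was not tested.

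For each member the 2 genes of at least 5 RPKM whose log2 level had the highest Pearson r with it over the 8 libraries, out of 7122 genes, were found as a description. For NOTCH1 they were PLK3 (r = 0.986) and DESI2 (0.981), for NOTCH2 PMF1 (0.957) and LGALSL (0.946), and for NOTCH3 PLK2 (0.981) and AEN (0.971). For JAG1 they were RHOB (0.957) and ATP2C1 (0.956), for JAG2 TUBGCP6 (0.984) and SBF1 (0.983), and for DLL1 LRRC28 (0.990) and DOT1L (0.982). For HES1 they were EFNA1 (0.964) and VASN (0.962), for HES2 IL1A (0.972) and THBD (0.966), for HES5 CHCHD2 (0.992) and SLC25A39 (0.991), and for HEY1 SOX4 (0.955) and EXOSC5 (0.953). With 8 points and so many candidates these values are a description only, and for JAG2, HES5 and HEY1 the points include the split by number.

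The wider Notch pathway was described by 8 lists of 56 genes, all in the table, of which 45 had enough signal to test. None of the 45 passed limma over all genes, without a block or with the library number as a block, and 3 had an unadjusted p under 0.05 without a block (7.8% of all genes did). With the block 11 did, 24.4% against 19.6% of all genes. A total of 14 of the 45, 31.1% against 29.3% of all genes, lay on one side for 4 of 4 numbers, 10 of them higher in HIF1A-KD and 4 lower. Among the genes named below, APH1A, HDAC1, SNW1, MIB1, MAML3 and LFNG were higher, and POFUT1, FURIN, NUMB and ADAM10 lower. Of the 45 estimates 27 were above 0, 60.0% against 58.7% of all tested genes, with a median log2 change of 0.056 against 0.064. The 11 untested genes included the receptor NOTCH4, the ligands DLL3, DLL4 and DLK1 and the targets HES7, HEY2 and HEYL. DLL3, the highest of these, averaged 0.224 RPKM in HIF1A-KD and 0.400 RPKM in shCtrl, and DLK1 was at 0 in every library.

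Among the other targets, 3 of 6 were tested. NRARP, a Notch target that feeds back on the Notch nuclear complex, held 43.2, 21.8, 26.3 and 15.0 RPKM in HIF1A-KD 1 to 4, against 20.1, 19.3, 11.7 and 19.9 RPKM in shCtrl 1 to 4. HIF1A-KD 1 was the highest and HIF1A-KD 4 lay within the shCtrl range (log2 change 0.51, SE 0.32, adjusted p = 0.815; 0.379 with the block). HES4 held 36.2, 26.2, 8.68 and 12.0 RPKM in HIF1A-KD 1 to 4, against 28.8, 23.6, 10.1 and 12.8 RPKM in shCtrl 1 to 4, so that it followed the number as HES5 did (log2 change 0.04, adjusted p = 0.999).

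Enzymes that sugar-coat or cut the receptors spanned a wide range of levels, with MFNG at a mean of 0.125 RPKM in HIF1A-KD and 0.129 RPKM in shCtrl at the low end. Of 5 Fringe and O-glycosylation enzymes 4 were tested and 0 passed, with a median log2 change of 0.19. POFUT1, which adds O-fucose to Notch, held 6.08, 7.37, 7.29 and 5.78 RPKM in HIF1A-KD 1 to 4, against 7.39, 11.2, 9.00 and 9.68 RPKM in shCtrl 1 to 4, a gap of 7.37 to 7.39 RPKM between the groups. It was the 1 gene of the 45 whose groups did not overlap, against 5.4% of all tested genes (log2 change −0.48, SE 0.19, adjusted p = 0.545 without a block and 0.130 with it). RFNG, a Fringe sugar transferase, averaged 18.2 ± 8.35 RPKM in HIF1A-KD and 16.0 ± 7.96 RPKM in shCtrl (SD, n = 4 each; adjusted p = 0.985). All 9 proteolysis genes were tested and 0 passed, 5 with estimates above 0 and 4 below, with a median of 0.056. FURIN, the convertase that matures Notch receptors, averaged 60.1 ± 12.8 RPKM in HIF1A-KD and 70.4 ± 16.1 RPKM in shCtrl (SD, n = 4 each; log2 change −0.22, adjusted p = 0.937), and APH1A, a gamma-secretase subunit, 59.7 ± 20.7 RPKM in HIF1A-KD and 52.0 ± 15.8 RPKM in shCtrl (log2 change 0.18, adjusted p = 0.983).

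In the nucleus, 14 of 14 genes of the RBPJ complex and its co-repressors were tested and 0 passed, with 11 estimates above 0, 3 below and a median of 0.22. HDAC1, a histone deacetylase, averaged 61.5 ± 5.57 RPKM in HIF1A-KD and 49.8 ± 4.76 RPKM in shCtrl (SD, n = 4 each; log2 change 0.30, adjusted p = 0.707), and SNW1, a transcriptional cofactor that is also part of the spliceosome, 39.7 ± 13.3 RPKM in HIF1A-KD and 30.8 ± 7.49 RPKM in shCtrl (log2 change 0.34, adjusted p = 0.894). Of 5 ligand endocytosis genes 3 were tested and 0 passed. The ubiquitin ligases MIB1 and MIB2, which act on Notch ligands, had log2 changes of 0.27 (adjusted p = 0.865) and −0.21 (adjusted p = 0.979). Of 12 inhibitors and turnover genes 11 were tested and 0 passed, 4 with estimates above 0 and 7 below, with a median of −0.11. ITCH, a ubiquitin ligase, averaged 24.1 ± 6.77 RPKM in HIF1A-KD and 27.9 ± 7.52 RPKM in shCtrl (SD, n = 4 each; adjusted p = 0.964), and NUMB, a Notch inhibitor, 21.0 ± 1.83 RPKM in HIF1A-KD and 25.6 ± 2.42 RPKM in shCtrl (log2 change −0.28, adjusted p = 0.743). DLK2, a Delta-like gene and the 1 tested of 4 further ligands, averaged 3.49 ± 1.16 RPKM in HIF1A-KD and 4.08 ± 0.80 RPKM in shCtrl (adjusted p = 0.951).

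**Figure D4:**
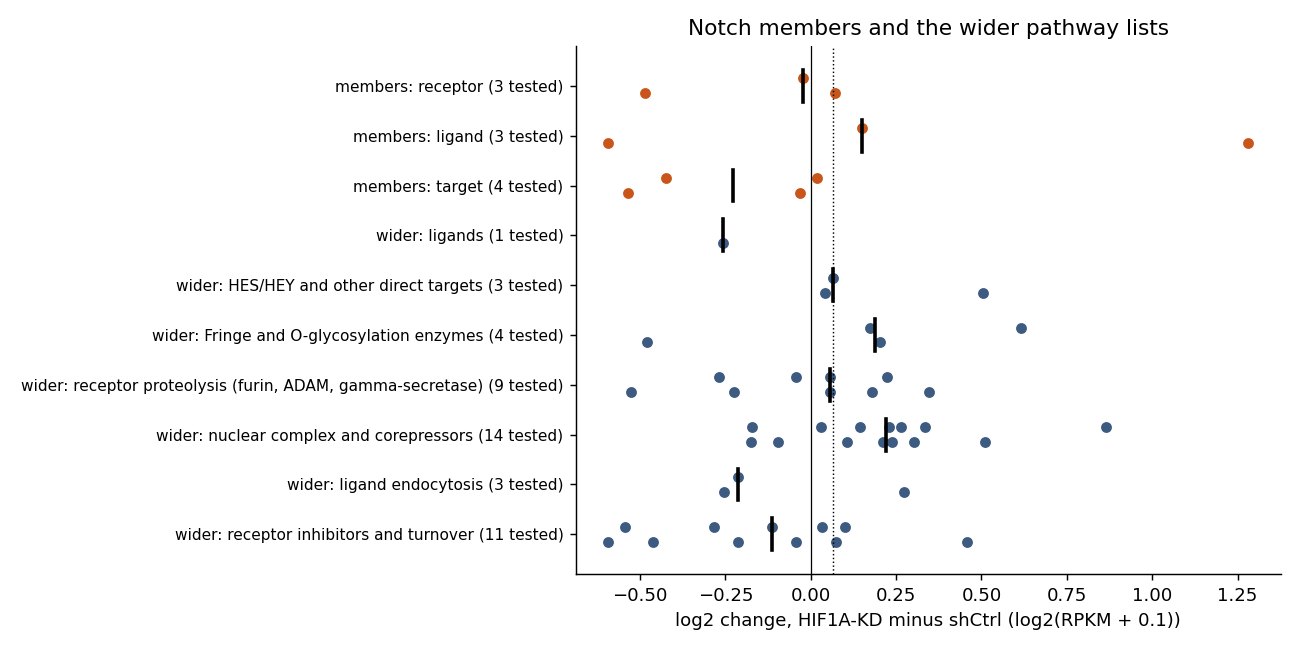
Log2 change, HIF1A-KD minus shCtrl, on the log2(RPKM + 0.1) scale (x axis) of each tested gene, one point per gene, for the 10 Notch members by role (orange) and the wider pathway lists (blue), with the list's median as a black bar and the median of all tested genes, 0.064, as a dotted line. Points of every list with more than 1 gene, except the other targets, lie on both sides of 0, and DLL1 at 1.28 is the highest point.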

How the data were processed

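RNA was sequenced from 8 libraries (4 HIF1A-KD, 4 shCtrl), grouped by their titles. Per the submitters' processing notes, HTSeq 0.6.1 and TopHat2 2.0.13 were among the tools, with no role or order given. The notes name both hg19 and hg38; gene coordinates of the deposited table carry hg19 contig names and are given as hg19, while promoter sequences are RefSeq's on GRCh38.p14. The strand setting of the counting was not given in the sources used here. In the table's coordinates the members overlapped no other gene but 4 microRNA genes on the same strand.

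Although its name speaks of raw counts, the authors' deposited table of expression values is in RPKM. Multiplied by gene length, 100% of the values of genes with a readable length were whole reads within 0.01 read after a constant was removed from each library, which also gave the read totals. The authors' second deposited table gives for each group a signal, the mean of normalised reads, and for each gene a fold ratio, its log2 and raw and adjusted p-values; its tool was not given in the sources used here.

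Differences were tested two-sided with limma 3.58.1 under R 4.3.3, using trend and robust moderation of log2(RPKM + 0.1). The 11899 genes tested reached 0.5 RPKM in 4 or more libraries, and Benjamini-Hochberg adjusted p-values under 0.05 were called. Adding 0.1 RPKM pulls the log2 changes of low genes toward 0. A count test was not the main one because the values are not counts; limma-voom on the recovered reads was an alternative. Exact permutation tests were two-sided and enumerated all arrangements with NumPy 2.4.6. The fit was also run on simulated counts, drawn independently for each library. These held no split or pairing by library number, so they cannot show how the fit behaves under the split seen here.

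As a check of pairing, deviations from the group means over the tested genes were compared between same-numbered libraries, giving correlations of 0.754, 0.730, 0.252 and 0.257 for numbers 1 to 4. All passed 0.1, so the number was taken as a pairing, which rests on the data alone. Passing 0.1 does not establish a pairing, since HIF1A-KD 2 with shCtrl 1, of different numbers, passed it too (0.120). For numbers 3 and 4 the pairing is uncertain, since HIF1A-KD 3 correlated more with shCtrl 4 (0.613) and HIF1A-KD 4 more with shCtrl 3 (0.463).

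The members, gene lists, tests and alternatives were chosen with earlier results of these data known. All 10 members are named. Of each wider list up to 3 called genes, or with none called the 2 most abundant tested genes, are named; the 2 genes most like each member were taken by Pearson r among genes of at least 5 RPKM on average.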

Additional observations from a re-analysis of the deposited data

Results flagged for a closer look

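In HIF1A-KD, HES1 was far lower in library 3 (6.03 RPKM) than in the other 3 libraries (20.2 to 20.5 RPKM): the gap to the nearest library was 0.987 of the group's whole range on the log2 scale, above Dixon's 95% critical value for 4 samples. This was the only 1 of 20 groups of 4 examined to pass that limit, and chance flags about 1 in 20. In shCtrl the lowest HES1 value, in library 4 (6.73 RPKM), did not pass it. By deviations over all tested genes, HIF1A-KD 3 correlated more with shCtrl 4 (0.613) than with shCtrl 3 (0.252). The HES1 ratio of HIF1A-KD 3 to shCtrl 4 was 0.896. Why HES1 was low in these libraries was not tested.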

How the results depend on the processing

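Of the 10 members 0 were called under each of the 19 other fits, leaving out the exchanged pairing below; the lowest adjusted p was 0.0904, for DLL1 with the number as a replicate block, which changed no member's call. Of the 188 member values, 167 kept their direction. NOTCH1, NOTCH2, JAG1, DLL1 and HES2 kept it in each of these fits. With 1 library left out their log2 changes were −0.88 to −0.15 for NOTCH1, 0.015 to 0.11 for NOTCH2, −0.997 to −0.18 for JAG1, 0.73 to 2.02 for DLL1 and −0.67 to −0.40 for HES2, and DLL1 was 0.57 with a pseudocount of 1. NOTCH3 was 0.21 in numbers 1 and 2 alone and −0.24 to 0.23 with 1 library left out. HES1 was 0.10 in numbers 3 and 4 alone and −0.42 to 0.40 with 1 left out, JAG2 −0.20 to 0.57 and HES5 −1.18 to 0.31. HEY1 was −0.042 under median-of-ratios scaling, −0.16 with limma-voom, −0.37 in numbers 1 and 2 alone and −0.17 to 0.34 with 1 left out. Of the other named genes, HES4 was −0.023 under that scaling, −0.15 in numbers 3 and 4 alone and −0.30 to 0.38 with 1 left out, RFNG −0.060 to 0.50 and MIB2 −0.47 to 0.0097; in numbers 1 and 2 alone DLK2 was 0.0025 and MIB2 0.0098. The cause was not tested. Over all genes 5 were called, against 3 with a pseudocount of 1 or of 0.01 or without trend and robust moderation, 1 without a filter, 8 under median-of-ratios scaling (3 higher, 5 lower), 102 with a term for numbers 1 and 2 against 3 and 4, 218 with the replicate block, 0 in numbers 1 and 2 alone and 0 to 3 with 1 library left out. Exchanging HIF1A-KD 3 and 4 in the block, an alternative chosen after the correlations in these data were known and no independent support, called 1327 genes (11.2%) and 4 of 10 members, NOTCH1 (adjusted p = 0.0206), JAG1 (0.0220), DLL1 (0.0304) and HES2 (0.0226). DLL1 and HEY1 did not reach a minimum of 1 RPKM in 4 libraries. Counting precision limits DLL1 and HES5, with as few as 17 and 14 reads in a library.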

Other observations

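ADAM10, MAML3 and LFNG, genes of the wider lists, were chosen after their values were seen. ADAM10, the protease that makes the first ligand-dependent cut in Notch, held 20.2, 14.6, 17.3 and 14.8 RPKM in HIF1A-KD 1 to 4, against 28.3, 20.2, 24.1 and 23.8 RPKM in shCtrl 1 to 4, lower for 4 of 4 numbers (log2 change −0.53, SE 0.18; limma adjusted p = 0.426 without a block and 0.0554 with it). MAML3, a Mastermind co-activator, held 5.59, 3.68, 8.34 and 7.79 RPKM in HIF1A-KD 1 to 4, against 3.25, 2.60, 2.94 and 4.64 RPKM in shCtrl 1 to 4, higher for 4 of 4 numbers (log2 change 0.86, SE 0.30; adjusted p = 0.453 without a block and 0.0851 with it). LFNG, a Fringe sugar transferase, averaged 2.91 ± 1.78 RPKM in HIF1A-KD and 1.94 ± 1.29 RPKM in shCtrl (SD, n = 4 each), higher for 4 of 4 numbers (log2 change 0.61, adjusted p = 0.936 without a block and 0.135 with it). None of the 3 passed either fit, and moving the same way for 4 of 4 numbers was seen in 29.3% of all tested genes.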
